A study of Mus musculus with 26 samples.

Results

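The Hox cluster genes are the 39 protein-coding homeobox genes of the 4 mouse Hox clusters, taken here by symbol (Hox, a cluster letter from a to d, and a paralog number) from a table of 26264 gene symbols counted in 18 osteoblast RNA libraries. The Hoxa cluster gave 11 members, Hoxb 10, Hoxc 9 and Hoxd 9. At least 1 count was found for 37 of them, and 35 passed the filter on low counts and were tested (11 Hoxa, 8 Hoxb, 9 Hoxc and 7 Hoxd genes). Hoxb1 and Hoxd12 had 0 counts in all 18 libraries. Hoxb13, with 23 counts over all libraries, and Hoxd1, with 7, were too rarely counted to test.

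The study compared cultured osteoblasts, the bone-forming cells, from the femur of C57BL/6J mice, with 3 libraries in each of 6 RNA groups, and 8 further libraries that profiled a histone mark are not analysed here. CKO-OLD and CKO-YOUNG osteoblasts lacked the CxxC domain of Kdm2b, removed from floxed alleles by Ocn-cre, a recombinase driven by the osteocalcin promoter of maturing osteoblasts, in mice that also carried the Ai14 fluorescent reporter; the labels call these cells screened and name no gate. The labels place iBP, a code name that they do not expand, on old controls (CON-OLD-iBP), with no dose or time of treatment. CON-YOUNG cells came from young control mice with Ocn-cre and Ai14 and an intact Kdm2b. OLD and YOUNG cells came from mice of 18 and 3 months that are described without cre or reporter. The ages of the knockout and control mice are given only as old and young, and no group is an old untreated control of the knockout line, so CKO-OLD and CON-OLD-iBP are set against OLD. OLD differs from CKO-OLD in cre and reporter as well, and the labels do not say which of these CON-OLD-iBP mice carried. No label says that replicates came from separate mice or cultures, so every p-value is set against the spread among these libraries alone, which may be technical.

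Hox genes encode transcription factors that give cells a position along the body axis and along the limb. Within a cluster, genes of low paralog number (anterior genes) are expressed towards the head and those of high number (posterior genes) towards the tail and the tip of the limb, and cells cultured from an adult bone are known to keep much of the code of the place they came from. Polycomb complexes hold Hox genes silent outside their domain. KDM2B is the subunit of the Polycomb complex PRC1.1 whose CxxC zinc finger binds unmethylated CpG dinucleotides, so the deleted part is the one that recognises CpG-rich promoters.

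The 250 bases upstream of the annotated start of Hoxa3, Hoxa11 and Hoxa13 are shown because Hoxa3 was the member past the test threshold, Hoxa11 the member with the smallest p over both knockout ages, and Hoxa13 a member with its 5 highest values in knockout libraries. They are reference sequences from RefSeq (GRCm38.p6), on the minus strand, with every CG dinucleotide in capitals. The Hoxa3 window lies between those of Hoxa6 and Hoxa7, upstream of an annotated Hoxa3 span that covers Hoxa4, Hoxa5 and Hoxa6.
Hoxa3, chr6:52213068-52213317: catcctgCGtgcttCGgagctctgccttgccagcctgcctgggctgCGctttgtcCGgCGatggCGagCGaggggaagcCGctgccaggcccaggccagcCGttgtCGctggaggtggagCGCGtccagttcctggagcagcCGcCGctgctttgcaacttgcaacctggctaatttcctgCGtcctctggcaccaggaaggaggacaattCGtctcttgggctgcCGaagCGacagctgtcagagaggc
Hoxa11, chr6:52245811-52246060: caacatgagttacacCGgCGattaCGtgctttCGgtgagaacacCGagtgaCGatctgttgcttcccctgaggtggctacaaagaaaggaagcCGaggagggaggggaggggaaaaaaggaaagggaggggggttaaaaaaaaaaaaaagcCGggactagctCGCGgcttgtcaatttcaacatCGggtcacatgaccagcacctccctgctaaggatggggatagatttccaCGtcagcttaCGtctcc
Hoxa13, chr6:52260881-52261130: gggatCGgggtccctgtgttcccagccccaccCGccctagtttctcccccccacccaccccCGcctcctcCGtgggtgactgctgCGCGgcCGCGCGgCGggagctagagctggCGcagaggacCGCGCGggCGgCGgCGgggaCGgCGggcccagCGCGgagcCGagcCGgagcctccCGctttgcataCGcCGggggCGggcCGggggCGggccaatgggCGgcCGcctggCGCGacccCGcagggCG
The stretch upstream of Hoxa13 held 35 CG dinucleotides, that of Hoxa3 18 and that of Hoxa11 13. Of 32851 promoter windows of the same length, 2.97% held at least 35, 21.7% at least 18 and 31.5% at least 13, and 92.1% held at least 1. Windows were found for 22 of the 39 Hox genes, 24 windows in all, with a median of 12.5 CG dinucleotides (range 2 to 35) against a median of 6 over all windows. The CG motif reads the same on both strands, and these letters say nothing of whether KDM2B was bound there.

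Library totals ran from 46272076 to 77698781 counts. Levels are given in CPM, counts scaled to a common TMM-adjusted library size, in which 1 count was worth 0.0127 to 0.0203 CPM. Osteoblast genes were present throughout, with Runx2 at 39.2 to 116 CPM and Col1a1 at 2910 to 32710 CPM, while Bglap and Bglap2, which encode osteocalcin, were at 0 in 2 and 3 libraries. Kdm2b was at 23.4, 57.2 and 28.4 CPM in CKO-OLD, 51.5, 58.2 and 27.6 CPM in CKO-YOUNG, 19.3, 24.0 and 16.2 CPM in CON-OLD-iBP, 48.8, 52.9 and 19.9 CPM in CON-YOUNG, 34.3, 19.3 and 31.1 CPM in OLD, and 37.2, 37.5 and 22.6 CPM in YOUNG. These counts cover the whole gene and do not check the deleted exons. The nuclear transcript Malat1 took more than 0.05% of counts in all CKO-OLD and CON-OLD-iBP libraries and in CKO-YOUNG 3, CON-YOUNG 3, OLD 2 and YOUNG 3, and less in the rest, so this split runs across the groups. OLD 1 and OLD 3 were the closest replicate pair (chi-square per degree of freedom of 8.97 over 16096 genes, against 35.9 to 823 in the other pairs) and were kept as separate libraries. Their difference can be read as above sampling noise only if 1 count is 1 read. It does not show that the 2 libraries came from separate cultures.

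CON-YOUNG 3 and CON-OLD-iBP 3 stood apart from their groups in Hox genes. The sum over Hoxb5 to Hoxb9 was 89.9 CPM in CON-YOUNG 3, against 0.685 and 1.97 CPM in the other CON-YOUNG libraries, and 33.9 CPM in CON-OLD-iBP 3, against 3.64 and 2.68 CPM in CON-OLD-iBP 1 and 2. Elsewhere that sum ran from 0.888 CPM in YOUNG 3 to 10.6 CPM in CKO-YOUNG 3. Isl1, a transcription factor of the early hindlimb field and of motor neurons, was also highest in this pair, at 39.7 CPM in CON-OLD-iBP 3 and 23.7 CPM in CON-YOUNG 3, and ran from 0 to 8.61 CPM in the other 16 libraries. Hoxa11 was at 0.789 CPM in CON-YOUNG 3, the lowest value of all 18 libraries.

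Across the libraries the Hox genes together made up 163.8 to 492.6 CPM, and both ends were controls (YOUNG 2 and CON-YOUNG 3). Genes of paralog numbers 9 to 13 took 49.9% to 69.5% of the Hox counts, numbers 5 to 8 took 22.3% to 34.7%, and numbers 1 to 4 took 7.51% to 22.2%. The Hoxc cluster took 37.2% to 65.6%, Hoxa 18.9% to 52.0%, Hoxb 0.753% to 23.9% and Hoxd 2.59% to 10.8%. These shares count reads and are not corrected for transcript length, which was not available. Every library was therefore weighted to the posterior genes, as the heatmap of paralog numbers 2 to 13 shows.

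**Figure D1:**
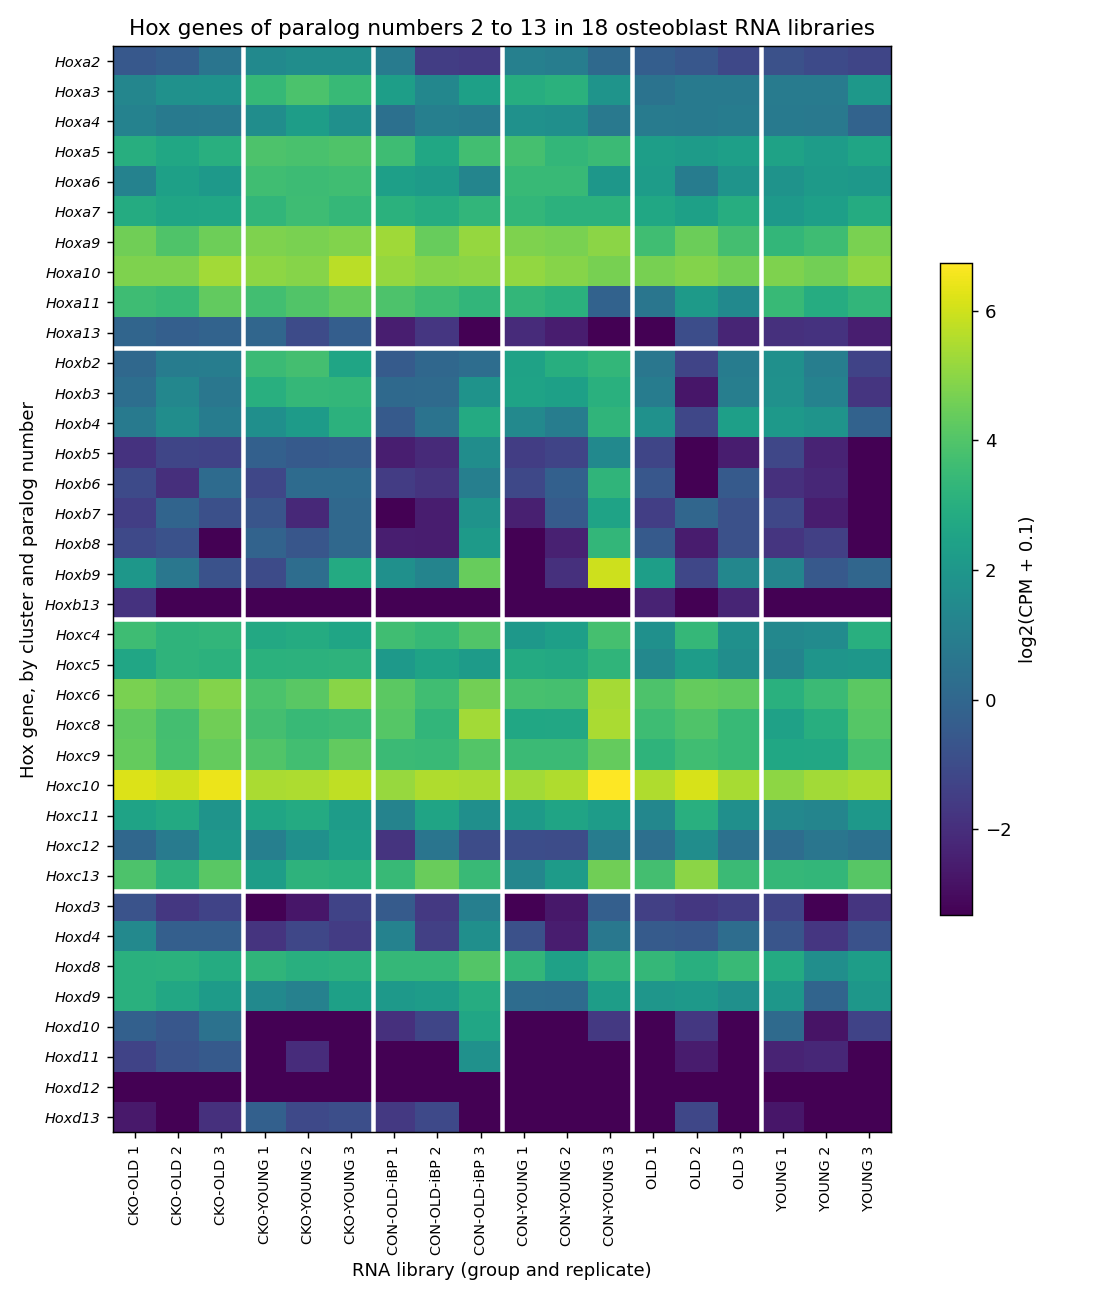
Heatmap of log2(CPM + 0.1) for the 36 Hox genes of paralog numbers 2 to 13 (rows, by cluster and paralog number) in the 18 RNA libraries (columns, by group and replicate); white lines separate clusters and groups. Hoxc10 and Hoxa10 were counted in every library, Hoxd12 in none, and Hoxb5 to Hoxb9 are bright in CON-YOUNG 3 and CON-OLD-iBP 3.

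In the Hoxc cluster, the 3 genes of highest mean CPM were Hoxc10, Hoxc6 and Hoxc8. Hoxc10, a hindlimb and lumbosacral gene, was at 73.7, 61.9 and 86.9 CPM in CKO-OLD, 43.6, 45.0 and 54.6 CPM in CKO-YOUNG, 35.9, 46.8 and 43.3 CPM in CON-OLD-iBP, 40.2, 45.8 and 106 CPM in CON-YOUNG, 45.7, 68.9 and 42.5 CPM in OLD, and 32.8, 40.8 and 44.5 CPM in YOUNG. Its CKO-OLD values were above those of CKO-YOUNG, CON-OLD-iBP and YOUNG, and CON-YOUNG 3 was the highest library. Hoxc6, which acts in the thoracic region, was at 25.8, 21.0 and 29.1 CPM in CKO-OLD, 14.8, 17.6 and 30.7 CPM in CKO-YOUNG, 18.2, 12.6 and 24.3 CPM in CON-OLD-iBP, 13.7, 13.5 and 42.0 CPM in CON-YOUNG, 15.1, 20.3 and 18.7 CPM in OLD, and 8.19, 11.5 and 18.0 CPM in YOUNG. Hoxc8, another gene of the thoracic skeleton, was at 19.1, 13.3 and 23.1 CPM in CKO-OLD, 13.3, 10.9 and 11.6 CPM in CKO-YOUNG, 16.6, 9.67 and 40.5 CPM in CON-OLD-iBP, 6.23, 6.43 and 43.2 CPM in CON-YOUNG, 12.1, 15.6 and 10.7 CPM in OLD, and 5.31, 7.77 and 17.0 CPM in YOUNG. For both, CON-YOUNG 3 lay far above CON-YOUNG 1 and 2, and Hoxc8 was also high in CON-OLD-iBP 3. Hoxc13, a gene of hair and nails that lies at the 5′ end of the cluster, ran from 2.34 CPM in CON-YOUNG 1 to 31.3 CPM in OLD 2.

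In the Hoxa cluster, Hoxa10, Hoxa9 and Hoxa11 had the highest mean CPM. Hoxa10, which is known to promote osteoblast genes in mouse cells, was at 27.7, 27.8 and 40.7 CPM in CKO-OLD, 32.1, 29.8 and 52.2 CPM in CKO-YOUNG, 34.9, 30.2 and 31.9 CPM in CON-OLD-iBP, 34.5, 29.9 and 25.5 CPM in CON-YOUNG, 25.4, 29.1 and 24.0 CPM in OLD, and 27.3, 24.3 and 32.9 CPM in YOUNG. OLD, at 24.0 to 29.1 CPM, lay below CON-OLD-iBP, at 30.2 to 34.9 CPM, and below CKO-YOUNG, at 29.8 to 52.2 CPM. Hoxa9, a gene of blood stem cells and of the proximal limb, was at 23.4, 15.5 and 22.7 CPM in CKO-OLD, 27.2, 26.0 and 27.9 CPM in CKO-YOUNG, 38.9, 21.1 and 35.0 CPM in CON-OLD-iBP, 27.4, 26.2 and 31.7 CPM in CON-YOUNG, 12.6, 22.0 and 13.1 CPM in OLD, and 10.1, 12.1 and 26.2 CPM in YOUNG. In OLD and in YOUNG, 1 library of 3 (OLD 2 and YOUNG 3) lay apart from the other 2, and both belong to the set of high Malat1.

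The Hoxb cluster split into a stretch of Hoxb2 to Hoxb4, seen in most libraries, and Hoxb5 to Hoxb9, seen mainly in CON-YOUNG 3 and CON-OLD-iBP 3. Hoxb9, of thoracic identity, was at 3.86, 1.49 and 0.482 CPM in CKO-OLD, 0.389, 1.11 and 6.90 CPM in CKO-YOUNG, 3.23, 2.22 and 21.1 CPM in CON-OLD-iBP, 0, 0.165 and 62.2 CPM in CON-YOUNG, 4.85, 0.336 and 2.43 CPM in OLD, and 2.26, 0.594 and 0.888 CPM in YOUNG. Without CON-YOUNG 3 and CON-OLD-iBP 3 it did not exceed 6.90 CPM. Hoxb2, a hindbrain patterning gene, was at 0.945, 1.79 and 1.84 CPM in CKO-OLD, 11.6, 13.3 and 5.89 CPM in CKO-YOUNG, 0.647, 0.917 and 1.12 CPM in CON-OLD-iBP, 5.41, 7.91 and 9.90 CPM in CON-YOUNG, 1.48, 0.318 and 1.76 CPM in OLD, and 3.23, 1.87 and 0.309 CPM in YOUNG. Hoxb3, its neighbour, was at 1.15, 2.40 and 1.47 CPM in CKO-OLD, 8.10, 10.2 and 9.86 CPM in CKO-YOUNG, 0.970, 1.01 and 3.47 CPM in CON-OLD-iBP, 5.65, 5.09 and 8.20 CPM in CON-YOUNG, 1.78, 0.0531 and 1.85 CPM in OLD, and 3.28, 2.10 and 0.193 CPM in YOUNG. Both were highest in CKO-YOUNG and CON-YOUNG.

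In the Hoxd cluster, Hoxd8, Hoxd9 and Hoxd4 had the highest mean CPM. Hoxd8 was at 8.23, 8.53 and 7.09 CPM in CKO-OLD, 9.47, 7.95 and 8.67 CPM in CKO-YOUNG, 10.2, 10.2 and 16.6 CPM in CON-OLD-iBP, 10.1, 5.37 and 9.81 CPM in CON-YOUNG, 10.2, 8.05 and 11.3 CPM in OLD, and 7.04, 3.03 and 4.73 CPM in YOUNG. Hoxd9, which acts in the upper limb segment, was at 8.14, 6.45 and 4.50 CPM in CKO-OLD, 2.60, 2.07 and 5.14 CPM in CKO-YOUNG, 4.24, 4.57 and 7.32 CPM in CON-OLD-iBP, 1.09, 1.05 and 4.68 CPM in CON-YOUNG, 3.84, 4.23 and 3.18 CPM in OLD, and 3.95, 0.855 and 3.86 CPM in YOUNG. Hoxd4 was at 2.53, 0.718 and 0.715 CPM in CKO-OLD, 0.186, 0.336 and 0.248 CPM in CKO-YOUNG, 2.12, 0.275 and 3.08 CPM in CON-OLD-iBP, 0.468, 0.0735 and 1.54 CPM in CON-YOUNG, 0.637, 0.584 and 1.12 CPM in OLD, and 0.521, 0.203 and 0.483 CPM in YOUNG. For Hoxd8 and Hoxd9 counts were found in every library, and CON-YOUNG 1 and 2 and YOUNG 2 gave the lowest values of Hoxd9. Hoxd10 and Hoxd11, limb genes of the middle and distal segments, had 0 counts in 7 and 10 of the 18 libraries, and were highest in CON-OLD-iBP 3, at 6.16 and 3.28 CPM. Hoxd13, the gene of the digits, did not exceed 0.744 CPM.

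Summed by paralog number, the numbers varied by different amounts between libraries. Number 10 (Hoxa10, Hoxc10 and Hoxd10) ran from 61.0 CPM in YOUNG 1 to 131.9 CPM in CON-YOUNG 3. Number 9 ran from 20.1 CPM in YOUNG 2 to 119 CPM in CON-YOUNG 3, number 8 from 11.1 CPM in YOUNG 2 to 63.1 CPM in CON-YOUNG 3, and number 6 from 11.9 CPM in YOUNG 1 to 55.4 CPM in CON-YOUNG 3. Number 7 ran from 4.61 CPM in YOUNG 1 to 14.2 CPM in CON-YOUNG 3, so that CON-YOUNG 3 was the highest library for each of numbers 6 to 10. The other numbers had other extremes, with number 5 between 7.71 and 25.2 CPM and number 4 between 8.08 and 27.8 CPM. Number 3 gave 18.8, 25.0 and 21.1 CPM in CKO-YOUNG, 13.2, 13.6 and 12.5 CPM in CON-YOUNG, and 1.91 to 10.6 CPM elsewhere. Number 2 gave 14.2, 16.2 and 8.81 CPM in CKO-YOUNG, 7.40, 9.74 and 10.9 CPM in CON-YOUNG, and at most 3.70 CPM elsewhere. For both numbers every young library of the knockout line lay above every other library. Number 11 was lowest in OLD 1, CON-YOUNG 3 and OLD 3, at 3.91, 5.38 and 5.76 CPM, and reached 24.9 CPM in CKO-YOUNG 3. Number 12, all of it Hoxc12, ran from 0.182 to 4.96 CPM, and number 13 from 2.47 to 32.1 CPM, most of it Hoxc13.

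Limb identity genes were read beside the Hox code. Pitx1, which specifies the hindlimb, was at 56.4, 30.5 and 83.1 CPM in CKO-OLD, 58.3, 56.6 and 50.5 CPM in CKO-YOUNG, 69.2, 47.3 and 23.8 CPM in CON-OLD-iBP, 53.4, 57.9 and 8.38 CPM in CON-YOUNG, 23.9, 48.1 and 24.2 CPM in OLD, and 17.8, 16.2 and 67.1 CPM in YOUNG. Tbx4, the hindlimb T-box gene, was at 6.05, 4.64 and 7.07 CPM in CKO-OLD, 0.727, 1.55 and 0.467 CPM in CKO-YOUNG, 2.22, 5.94 and 4.87 CPM in CON-OLD-iBP, 0.752, 0.938 and 1.06 CPM in CON-YOUNG, 6.33, 3.54 and 7.51 CPM in OLD, and 4.66, 2.77 and 6.01 CPM in YOUNG. Tbx5, its forelimb counterpart, was at 3.84, 0.175 and 0.322 CPM in CKO-OLD, 1.12, 0.0706 and 0.263 CPM in CKO-YOUNG, 0.869, 2.53 and 0.993 CPM in CON-OLD-iBP, 0.217, 0.294 and 0 CPM in CON-YOUNG, 0.768, 0 and 0.343 CPM in OLD, and 0.102, 0 and 2.86 CPM in YOUNG. Pitx1 was lowest in CON-YOUNG 3 and Tbx4 stood low in all 6 CKO-YOUNG and CON-YOUNG libraries. Tbx4 was higher in CKO-OLD than in CKO-YOUNG (log2 fold change 2.69 ± 0.51 SE, edgeR adjusted p = 0.036), and Pitx1 and Tbx5 passed the threshold in none of the 8 comparisons (lowest adjusted p 0.559).

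Between old and young knockout cells, Hoxa3 was the single Hox gene that passed the test, lower by 4-fold in the old cells. In CKO-OLD against CKO-YOUNG, edgeR called 1 of 35 Hox genes, and 116 of all 16566 genes tested, or 0.7%. Lower calls made up 0.362% of all genes tested. At an unadjusted p under 0.05 there were 10 Hox genes, where 24.5% of all genes reached it. Hoxa3, which patterns the pharyngeal arches, the thymus and the parathyroid, was at 2.37, 3.31 and 3.41 CPM in CKO-OLD, against 10.7, 14.7 and 11.0 CPM in CKO-YOUNG. The groups did not overlap. Its log2 fold change was -2.0 ± 0.43 (SE) with an edgeR adjusted p of 0.0473. The edgeR adjusted p was 0.0505 with RLE size factors, 0.058 with a replicate block, and 0.128 to 0.184 when each of 5 of the 6 libraries was left out. Without CKO-YOUNG 3 it passed, where 15.7% of all genes did. It also passed with DESeq2, limma-voom and only the groups compared, where 9.8%, 1.53% and 4.87% of all genes did. Hoxa3 did not pass with no filter, with library sets by Malat1 as a term, or without the low-Malat1 YOUNG and OLD libraries. Within the set of high Malat1 the log2 fold change was -1.85, with CKO-YOUNG 3 alone in its group, so no p is given for it. Among the other groups, Hoxa3 was at 7.58, 8.47 and 3.55 CPM in CON-YOUNG and 2.39 to 5.21 CPM in CON-OLD-iBP. It was at 1.30 to 1.67 CPM in OLD and 1.70 to 3.96 CPM in YOUNG.

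Other Hox genes in CKO-OLD against CKO-YOUNG did not pass. Hoxa5, a gene of the neck and upper thorax, was at 7.76, 6.29 and 7.95 CPM in CKO-OLD, against 15.1, 14.5 and 15.6 CPM in CKO-YOUNG (log2 fold change -1.04 ± 0.25, edgeR adjusted p = 0.0584). Hoxb2 averaged 1.52 ± 0.502 CPM in CKO-OLD and 10.3 ± 3.88 CPM in CKO-YOUNG (SD, n = 3 each; log2 fold change -2.75 ± 0.72, edgeR adjusted p = 0.0639). Hoxa6 had a log2 fold change of -1.66 ± 0.46 and an edgeR adjusted p of 0.0698. Of the 11 Hoxa genes, 10 had a negative fold change, as had all 8 tested Hoxb genes, against 3 of 9 Hoxc and 2 of 7 Hoxd genes. Fold changes were positive for 12 of the 35, and for 49.4% of all genes tested. By position, the median log2 fold change was -1.17 for 10 anterior genes, -0.61 for 11 central genes and 0.02 for 14 posterior genes, with -0.25 for all 35 and -0.00 for all genes tested. The median of the 35 was -0.46 without CKO-OLD 3 and -0.13 without CKO-YOUNG 3.

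The sum over Hoxa2 to Hoxa7 was 22.1, 23.0 and 24.9 CPM in CKO-OLD, against 53.3, 60.6 and 55.5 CPM in CKO-YOUNG. The sum over Hoxb2 to Hoxb4 was 3.74, 7.15 and 5.09 CPM in CKO-OLD, against 22.8, 28.1 and 24.5 CPM in CKO-YOUNG. Over Hoxa2 to Hoxa7 the sum was 47.3, 42.8 and 30.2 CPM in CON-YOUNG. It was 33.3, 22.7 and 31.9 CPM in CON-OLD-iBP, which overlapped CON-YOUNG through CON-YOUNG 3. OLD and YOUNG, the other pair of ages, had 15.3 to 19.9 CPM and 17.05 to 22.3 CPM over that stretch. In CKO-OLD against CKO-YOUNG, 13 tested Hox genes were lower without overlap, where 15.2% of all genes were, and 6 were higher without overlap, where 16.3% were. The macrophage markers, 14 genes, summed to 0.119% to 0.525% of counts in CKO-OLD, against 0.0131% to 0.0842% in CKO-YOUNG, and 14 of 14 had a positive fold change. So had 8 of 8 osteoclast markers and 8 of 9 chondrocyte markers, with median log2 fold changes of 3.49 and 3.39. Marrow stroma and adipocyte markers summed to 0.0151% to 0.0294% in CKO-OLD, below the 0.0431% to 0.0649% in CKO-YOUNG. Of 12 osteoblast markers 7 had a positive fold change, and their sum was 2.38% to 3.59% in CKO-OLD and 3.05% to 4.34% in CKO-YOUNG. Among them edgeR called Spp1 (2.57 ± 0.42, adjusted p = 0.0253) and Bglap (8.53 ± 1.66, adjusted p = 0.0389) higher in CKO-OLD. The part of these markers in the Hox result was not tested. In bulk RNA, fewer cells of a type and less RNA per cell cannot be told apart.

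**Figure D2:**
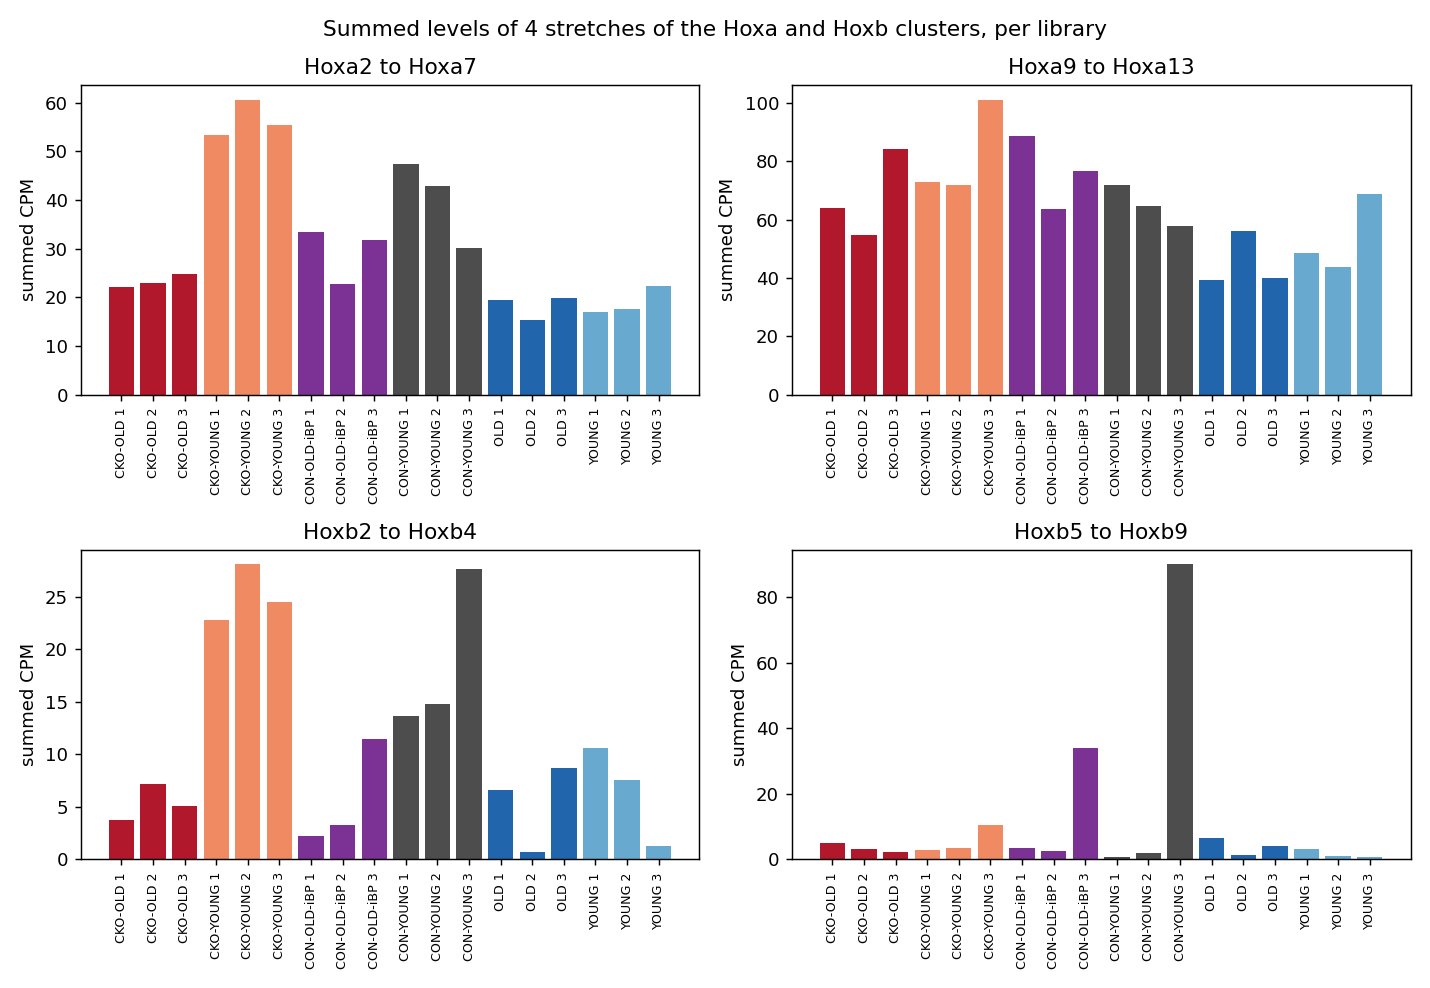
Summed CPM (bars, from 0) of Hoxa2 to Hoxa7, Hoxa9 to Hoxa13, Hoxb2 to Hoxb4 and Hoxb5 to Hoxb9 in each of the 18 libraries, coloured by group. The Hoxa2 to Hoxa7 sum is highest in CKO-YOUNG (53.3 to 60.6 CPM) and 22.1 to 24.9 CPM in CKO-OLD, and the Hoxb5 to Hoxb9 sum is 89.9 CPM in CON-YOUNG 3.

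In the same comparison Hoxd10 ran the other way. It had 37, 32 and 71 counts in CKO-OLD, against 0 in all 3 CKO-YOUNG libraries. Against a floor of 3 counts over the CKO-YOUNG group, it was 52.8-fold higher in CKO-OLD (edgeR adjusted p = 0.101). That fold is a lower bound only if 1 count is 1 read. Reads of Hoxd10 and Hoxd11 cannot be told apart where their annotated spans overlap. In all, the spans of 20 of the 39 Hox genes overlap another annotated gene, among them Hoxa3, whose span covers Hoxa4, Hoxa5 and Hoxa6.

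Over both ages, Hoxa11 was the Hox gene with the smallest p between knockout and control, and it did not pass. Hoxa11, which with Hoxd11 patterns the middle segment of the limb, was at 12.2, 11.0 and 19.9 CPM in CKO-OLD, 12.8, 15.8 and 20.3 CPM in CKO-YOUNG, 15.0, 12.0 and 9.71 CPM in CON-OLD-iBP, 9.87, 8.46 and 0.789 CPM in CON-YOUNG, 1.46, 4.40 and 2.61 CPM in OLD, and 11.0, 7.38 and 9.68 CPM in YOUNG. All 6 knockout libraries, at 10.95 to 20.3 CPM, lay above all 6 CON-YOUNG and OLD libraries, at 0.789 to 9.87 CPM. Other libraries without the deletion lay within the knockout range: YOUNG 1, at 10.99 CPM, and CON-OLD-iBP 1 and 2, at 15.0 and 12.0 CPM. In the test of CKO over both ages, the mean of CKO-OLD and CKO-YOUNG against that of CON-YOUNG and OLD, its log2 fold change was 1.85 ± 0.44 (edgeR adjusted p = 0.0965). DESeq2 gave an adjusted p of 0.00154 and limma-voom 0.0274. Without CON-YOUNG 3, the log2 fold change was 1.59 and the edgeR adjusted p 0.0185, while within the set of high Malat1 the log2 fold change was 3.21. The controls of that set are 1 library each, OLD 2 and CON-YOUNG 3, which held the lowest Hoxa11 of all 18, so no p is given for it.

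Hoxa11os, transcribed from the strand opposite Hoxa11, did pass in that comparison. It was at 6.72, 3.24 and 7.34 CPM in CKO-OLD, 4.24, 5.25 and 8.97 CPM in CKO-YOUNG, 7.05, 4.11 and 8.29 CPM in CON-OLD-iBP, 2.12, 2.41 and 1.38 CPM in CON-YOUNG, 1.03, 1.77 and 0.791 CPM in OLD, and 2.88, 1.71 and 4.17 CPM in YOUNG. All 6 knockout libraries lay above all 6 CON-YOUNG and OLD libraries (log2 fold change 1.96 ± 0.34, edgeR adjusted p = 0.0162). CON-OLD-iBP, labelled as a control, was at levels inside the knockout range, as was YOUNG 3, at 4.17 CPM. Since the spans overlap and the use of strand is not given, reads of Hoxa11 and Hoxa11os cannot be told apart.

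In CKO over both ages, edgeR called 0 of 35 Hox genes and 88 of all genes tested, or 0.531%. At an unadjusted p under 0.05 there were 7 Hox genes, all higher in the knockout, and 8.38% of all genes in either direction. DESeq2 called 3 Hox genes (Hoxc5, Hoxa11 and Hoxd11), where it called 2.1% of all genes, and limma-voom 1, where it called 0.966%. Hoxd11 had 15, 28 and 35 counts in CKO-OLD and 0, 8 and 0 in CKO-YOUNG. It had 0, 4 and 0 counts in OLD and 0 in every CON-YOUNG library. Hoxa11 was the single Hox gene whose 6 knockout libraries all lay above the 6 controls, where 0.948% of all genes did. All 11 Hoxa genes had a positive fold change, with a median log2 value of 0.35, against 3 of 8 Hoxb, 7 of 9 Hoxc and 3 of 7 Hoxd genes, and 46.3% of all genes tested. The median was 0.24 for all 35 and -0.03 for all genes tested, and without CON-YOUNG 3 the Hox median was 0.62, with 34 of 35 positive. Osteoclast markers had 1 of 8 positive fold changes (median -2.19) and macrophage markers 1 of 14, and their part was not tested. Hoxc5 (0.72 ± 0.21, edgeR adjusted p = 0.219) and Hoxa3 (0.93 ± 0.29, edgeR adjusted p = 0.268) had the next smallest p.

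Hoxa13, the most posterior Hoxa gene and with Hoxd13 the gene of the hand and foot, was scarce in all groups. It was at 0.865, 0.736 and 0.822 CPM in CKO-OLD, 0.896, 0.389 and 0.700 CPM in CKO-YOUNG, 0.0808, 0.202 and 0 CPM in CON-OLD-iBP, 0.134, 0.0735 and 0 CPM in CON-YOUNG, 0, 0.425 and 0.105 CPM in OLD, and 0.165, 0.174 and 0.0773 CPM in YOUNG. Knockout libraries held 22 to 53 counts and OLD 2, the highest of the others, 24. The log2 fold change over both ages was 2.70 ± 1.01 (edgeR adjusted p = 0.409). Its levels in the plot of 6 genes by group show the knockout values on top, with OLD 2 inside their range.

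**Figure D3:**
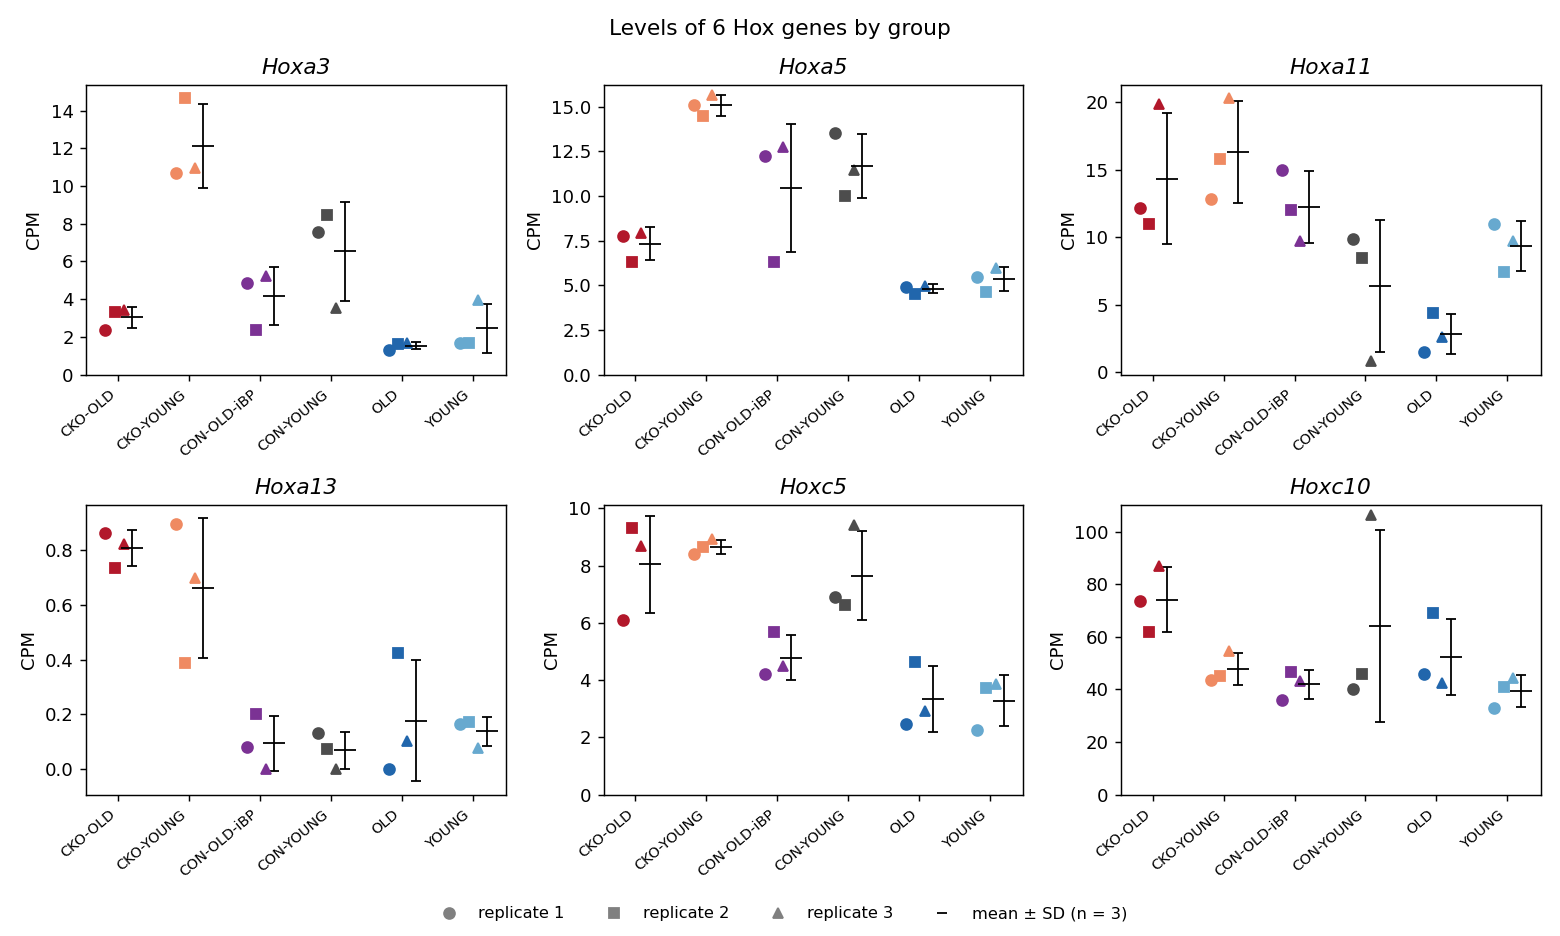
CPM of Hoxa3, Hoxa5, Hoxa11, Hoxa13, Hoxc5 and Hoxc10 (y axes) in the 6 groups (x axes); symbols are single libraries by replicate number and black bars the mean ± SD (n = 3). Hoxa3 is at 2.37 to 3.41 CPM in CKO-OLD and 10.7 to 14.7 CPM in CKO-YOUNG, and Hoxa11 is lowest in CON-YOUNG 3 and OLD.

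Among young cells, no Hox gene passed between CKO-YOUNG and CON-YOUNG. edgeR called 0 of 35, DESeq2 1 of 37 (Hoxd11) and limma-voom 0. Hoxd11 had 0, 8 and 0 counts in CKO-YOUNG and 0 in all 3 CON-YOUNG libraries, so the DESeq2 call rests on 1 library. Over all genes tested, edgeR called 21, or 0.127%, and DESeq2 237 of 20832, or 1.14%. An unadjusted edgeR p under 0.05 was reached by 5 Hox genes, all higher in the knockout, and by 5.48% of all genes in either direction. Fitted on these 6 libraries alone, edgeR called 4 of all genes, and 0 with the replicate number as a block, with 0 Hox genes in both. Fold changes were positive for 21 of the 35, and for 47.5% of all genes tested; without CON-YOUNG 3 they were positive for 33. In 8 Hox genes the CKO-YOUNG values all lay above CON-YOUNG, where 5.32% of all genes did, and 6 of these were Hoxa genes (Hoxa2, Hoxa3, Hoxa5, Hoxa6, Hoxa11 and Hoxa13). In 0 Hox genes did they all lie below, where 3.19% of all genes did. Hoxd13 had 44, 21 and 30 counts in CKO-YOUNG, against 0 in all 3 CON-YOUNG libraries (edgeR adjusted p = 0.629). With CON-YOUNG set at a floor of 3 counts over the group, it was 29.2-fold higher, a lower bound only if 1 count is 1 read. Hoxc12 was at 1.91, 3.25 and 4.96 CPM in CKO-YOUNG, against 0.418, 0.404 and 1.78 CPM in CON-YOUNG (log2 fold change 1.96 ± 0.81, edgeR adjusted p = 0.785).

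Hoxa11 in this comparison had a log2 fold change of 1.35 ± 0.62 (edgeR adjusted p = 0.897). CKO-YOUNG 3 against CON-YOUNG 3, the pair within the set of high Malat1, gave 4.70, with 1 library a side, so no p is given for it. Hoxb5 to Hoxb9 had negative fold changes that rest on CON-YOUNG 3. The median log2 fold change was -1.30 for the 8 Hoxb genes, 0.45 for the 11 Hoxa genes, 0.19 for all 35, 0.57 for all 35 without CON-YOUNG 3 and -0.11 for all 35 in the pair within the set of high Malat1. The median over all genes tested was -0.01. Osteoblast markers had 0 of 12 positive fold changes (median -0.49) and macrophage markers 12 of 14 (median 0.50), and their part was not tested.

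Among old cells, no Hox gene passed between CKO-OLD and OLD. edgeR called 0 of 35, DESeq2 2 of 37 (Hoxc5 and Hoxa11) and limma-voom 0. Over all genes tested, edgeR called 1, or 0.00604%, and DESeq2 193 of 20832, or 0.926%. An unadjusted edgeR p under 0.05 was reached by 5 Hox genes, all higher in the knockout, and by 8.16% of all genes in either direction. Hoxc5 was at 6.11, 9.32 and 8.70 CPM in CKO-OLD, against 2.46, 4.63 and 2.91 CPM in OLD (log2 fold change 1.27 ± 0.30, edgeR adjusted p = 0.277). Hoxa11 averaged 14.3 ± 4.84 CPM in CKO-OLD and 2.83 ± 1.48 CPM in OLD (SD, n = 3 each; log2 fold change 2.34 ± 0.64, edgeR adjusted p = 0.367). Hoxa5 had 0.61 ± 0.25 and an edgeR adjusted p of 0.586. The CKO-OLD libraries all lay above OLD in 10 Hox genes, where 8.9% of all genes did, and all below in 0, where 8.47% did.

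All 11 Hoxa genes had a positive fold change in CKO-OLD against OLD, as had 4 of 8 Hoxb, 8 of 9 Hoxc and 5 of 7 Hoxd genes, and 48.2% of all genes tested. The median log2 fold change of the 35 was 0.42, against -0.01 over all genes tested. OLD 1 and OLD 3 held 0.975% and 0.973% of counts in macrophage markers and 0.212% and 0.218% in osteoclast markers, while OLD 2 held 0.125% and 0.024%. CKO-OLD held 0.119% to 0.525% and 0.0121% to 0.0337%. Hoxa11 was at 1.46, 4.40 and 2.61 CPM in OLD 1, 2 and 3, and at 10.95 CPM in the lowest CKO-OLD library. Fold changes were positive for 7 of 9 chondrocyte markers (median 4.67) and 10 of 12 osteoblast markers (median 0.37). The part of these markers in the Hox values was not tested.

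Old controls given iBP were set against the same OLD libraries, so the results for CKO-OLD and CON-OLD-iBP share their controls. edgeR called 0 of 35 Hox genes, DESeq2 4 of 37 (Hoxa3, Hoxa5, Hoxa9 and Hoxa11) and limma-voom 0. Over all genes tested, edgeR called 4, or 0.0241%, and DESeq2 2091 of 20832, or 10%. An unadjusted edgeR p under 0.05 was reached by 6 Hox genes, all higher with iBP, and by 23.4% of all genes in either direction. Hoxa5 was at 12.3, 6.31 and 12.8 CPM in CON-OLD-iBP, against 4.91, 4.51 and 4.98 CPM in OLD (log2 fold change 1.12 ± 0.25, edgeR adjusted p = 0.0538). Hoxa3 was at 4.85, 2.39 and 5.21 CPM in CON-OLD-iBP, against 1.30, 1.65 and 1.67 CPM in OLD (1.43 ± 0.42, edgeR adjusted p = 0.0746). Hoxa11 was at 15.0, 12.0 and 9.71 CPM in CON-OLD-iBP, against 1.46, 4.40 and 2.61 CPM in OLD (2.11 ± 0.63, edgeR adjusted p = 0.0769).

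Without OLD 2, 4 Hox genes passed in CON-OLD-iBP against OLD (Hoxa5, Hoxa9, Hoxa11 and Hoxc4), where 7.87% of all genes did. Without CON-OLD-iBP 2, Hoxa5 was the single Hox gene that passed, where 0.69% of all genes did. The iBP libraries all lay above OLD in 6 Hox genes, where 14.3% of all genes did, and all below in 0, where 15.8% did. Positive fold changes were seen in 28 of 35 Hox genes (20 without CON-OLD-iBP 3), and in 50.1% of all genes tested. The median log2 fold change of the 35 was 0.52, and 0.04 without CON-OLD-iBP 3, against 0.00 over all genes tested. Macrophage markers summed to 0.0477% to 0.0834% of counts in CON-OLD-iBP and 0.125% to 0.975% in OLD. Osteoclast markers had 0 of 8 positive fold changes (median -7.06) and chondrocyte markers 8 of 9 (median 5.94). The part of these markers in the Hox result was not tested.

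CKO-OLD was also set against CON-OLD-iBP, the pair in which all 6 libraries share the set of high Malat1. edgeR called 0 of 35 Hox genes, as did DESeq2 and limma-voom, and 3 had an unadjusted p under 0.05, all Hoxc genes and all higher in CKO-OLD, as 19.6% of all genes tested had in either direction; edgeR called 213 of all genes tested, or 1.29%. Hoxc10 was at 73.7, 61.9 and 86.8 CPM in CKO-OLD, against 35.9, 46.8 and 43.3 CPM in CON-OLD-iBP (log2 fold change 0.82 ± 0.31, edgeR adjusted p = 0.168). Hoxc5 averaged 8.04 ± 1.70 CPM in CKO-OLD and 4.79 ± 0.775 CPM in CON-OLD-iBP (SD, n = 3 each; 0.75 ± 0.30, edgeR adjusted p = 0.192). Hoxc12 had a log2 fold change of 1.74 ± 0.81 and an edgeR adjusted p of 0.249.

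In that comparison 3 Hox genes were higher without overlap (Hoxa13, Hoxc5 and Hoxc10), where 16.0% of all genes were, and 2 lower (Hoxa7 and Hoxd8), where 14.5% were. The median log2 fold change of the Hox genes was -0.27, and its direction turned without CON-OLD-iBP 3 (0.43), by limma-voom (0.11) and with a replicate block (0.13). The median over all genes tested was 0.01. Fold changes were positive for 13 of 35 Hox genes (22 without CON-OLD-iBP 3), and for 51.0% of all genes tested. Of the Hoxb genes, 7 of 8 had a negative one, and of the Hoxd genes 6 of 7. Fold changes were positive for 14 of 14 macrophage markers (median 1.97) and 12 of 12 osteoblast markers (median 0.67), and their part was not tested.

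**Figure D4:**
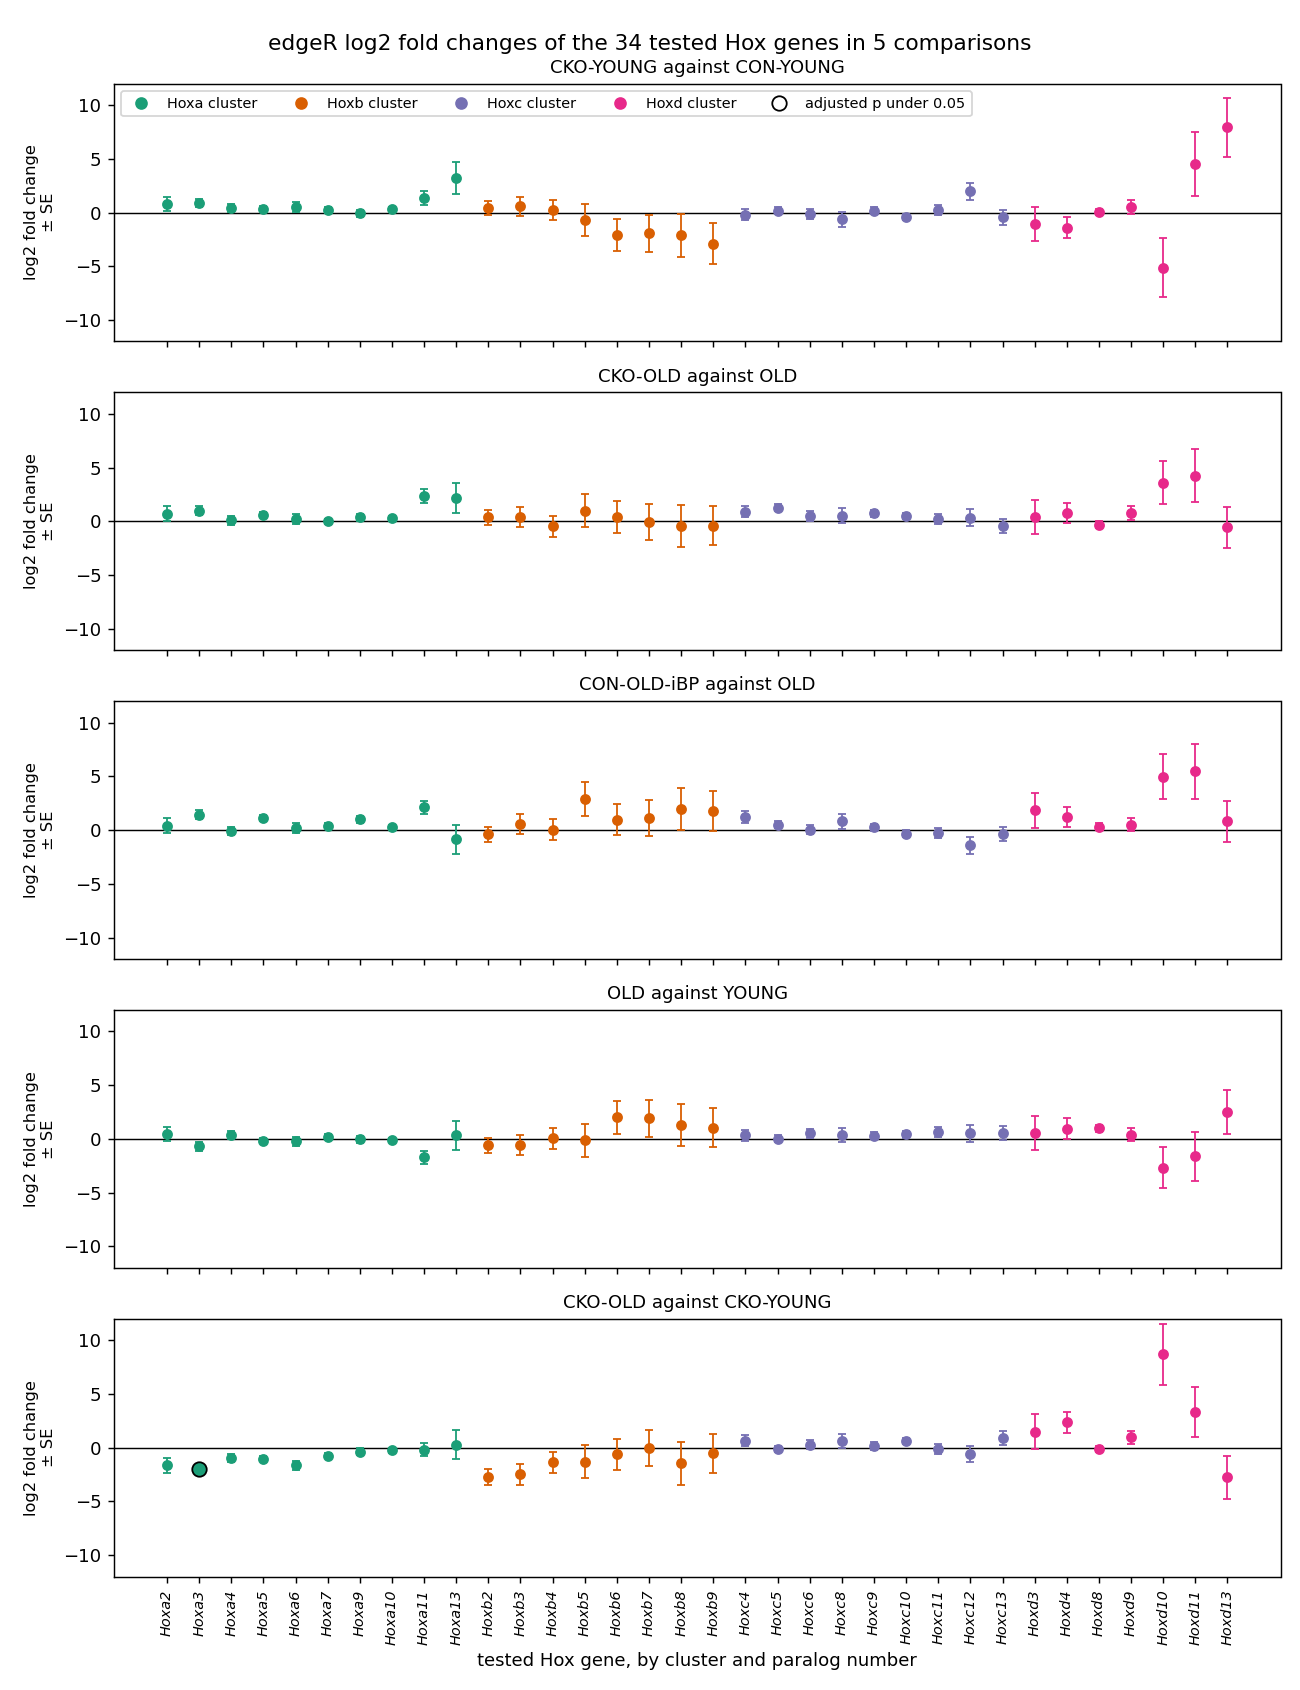
edgeR log2 fold changes (points) ± SE (bars) of the 34 tested Hox genes of paralog numbers 2 to 13, ordered by cluster and paralog number on the x axis, in 5 comparisons named above each panel; positive values are higher in the group named first. The black outline marks Hoxa3 in CKO-OLD against CKO-YOUNG (-2.0 ± 0.43), the one point past the threshold, and the widest bars belong to rarely counted Hoxd genes.

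Between mice of 18 and 3 months, edgeR called 0 of 35 Hox genes, as did DESeq2 and limma-voom, and 2 had an unadjusted p under 0.05, as 3.34% of all genes tested had; edgeR called 0 of all genes tested, or 0.0%. Hoxd8 was at 10.2, 8.05 and 11.3 CPM in OLD, against 7.04, 3.03 and 4.73 CPM in YOUNG (log2 fold change 1.00 ± 0.32, edgeR adjusted p = 1). Hoxa11 was at 1.46, 4.40 and 2.61 CPM in OLD, against 11.0, 7.38 and 9.68 CPM in YOUNG (-1.73 ± 0.63, edgeR adjusted p = 1). Hoxa3 had -0.67 ± 0.42 and an edgeR adjusted p of 1. Higher values without overlap were seen in 3 Hox genes (Hoxa4, Hoxd4 and Hoxd8), where 5.73% of all genes had them, and lower ones in 2 (Hoxa3 and Hoxa11), where 5.63% did. All 9 Hoxc genes had a positive fold change, from 0.02 to 0.62 on the log2 scale, and 24 of 35 Hox genes had one, where 45.5% of all genes did. The Hox median was 0.32, against -0.03 over all genes tested. It was 0.06 without OLD 2, with 18 of 35 positive, and 0.14 without YOUNG 2. Osteoclast markers had 8 of 8 positive fold changes (median 4.91) and chondrocyte markers 1 of 9 (median -6.18), and their part was not tested.

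The knockout difference in old cells was also set against that in young cells. edgeR called 0 of 35 Hox genes, as did DESeq2 and limma-voom, and 4 had an unadjusted p under 0.05 (Hoxc5, Hoxd13, Hoxd10 and Hoxc10), as 4.81% of all genes tested had; edgeR called 0 of all genes tested, or 0.0%. The difference was positive for 22 of the 35, and for 49.8% of all genes tested. The median over the 35 was 0.24, and -0.15 without CON-YOUNG 3, 0.68 without OLD 2 and -0.10 without CON-YOUNG 3 and CKO-YOUNG 3. For Hoxc5 the knockout difference was larger in old cells by 1.09 ± 0.43 on the log2 scale (edgeR adjusted p = 0.963). Hoxd13 had its knockout counts in young cells (44, 21 and 30 in CKO-YOUNG and 3, 0 and 9 in CKO-OLD), and Hoxd10 in old cells, and for both the edgeR adjusted p was 0.963. For Hoxa11 the difference between ages was 0.99 ± 0.86 (edgeR adjusted p = 0.982) and the SE nearly as large as the value.

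Genes around the Hox genes were read from lists. Of all genes tested, 0% to 1.29% passed in the 8 comparisons. The TALE cofactors, homeodomain partners of HOX proteins such as Meis1 and Meis2, had 9 of 9 members tested, and 0 passed in any of the 8 comparisons. Their summed share of counts was 0.0152% to 0.0245% in all libraries. Of the non-coding transcripts of the clusters 6 were tested, and Hoxa11os in CKO over both ages, where 0.531% of all genes passed, was the single call. Of the genes that flank the clusters 10 were tested and 0 passed. Of the 37 chromatin and retinoid regulators 36 were tested. Bcor, a PRC1.1 subunit, was higher in CKO over both ages (log2 fold change 1.48 ± 0.29, edgeR adjusted p = 0.0357), where 0.519% of all genes were.

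Among the limb transcription factors, of which 27 were tested, 2 were higher in CKO over both ages, where 0.519% of all genes were. Lmx1b, which gives the limb its dorsal side, was at 10.2, 15.1 and 10.5 CPM in CKO-OLD, 7.95, 6.96 and 10.9 CPM in CKO-YOUNG, 2.28, 7.27 and 1.01 CPM in CON-OLD-iBP, 1.45, 1.25 and 1.29 CPM in CON-YOUNG, 2.38, 2.26 and 2.33 CPM in OLD, and 1.69, 1.52 and 2.68 CPM in YOUNG (log2 fold change 2.53 ± 0.38, edgeR adjusted p = 0.00668). All 6 knockout libraries lay above CON-YOUNG and OLD. Lhx2, a gene of early limb outgrowth, was at 4.99, 6.34 and 5.04 CPM in CKO-OLD, 27.7, 28.6 and 15.7 CPM in CKO-YOUNG, 0.243, 0.220 and 0 CPM in CON-OLD-iBP, 3.96, 2.37 and 0.467 CPM in CON-YOUNG, 1.17, 0.248 and 1.09 CPM in OLD, and 0.597, 0.174 and 0.193 CPM in YOUNG (3.05 ± 0.63, edgeR adjusted p = 0.0434). It was also higher in CKO-OLD than in CON-OLD-iBP (5.12 ± 1.00, edgeR adjusted p = 0.0275). The ParaHox genes, sister genes of the Hox clusters, had 0 members tested, because all 6 were at or near 0.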

How the data were processed

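RNA was sequenced in 18 libraries of cultured mouse femoral osteoblasts, grouped by the submitters' titles into 6 groups of 3. The authors deposited 1 table of whole-number counts per gene symbol with no normalization. Per the submitters' processing notes, FastQC, Trim Galore, HISAT2 and the mm39 build were used. The counting program, annotation and use of strand were not given in the sources used here. Values of 4 were more frequent in the table (7193) than values of 1 (3523), and whether a count is a tally of reads or was computed from coverage is not given.

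From these counts, 16566 genes passed filterByExpr at a minimum count of 10 and a minimum total of 15. After TMM scaling, the quasi-likelihood F test of edgeR (robust, two-sided) was run in a single model of the 6 groups with 12 residual degrees of freedom. Benjamini-Hochberg adjustment ran over all genes tested, with a threshold of 0.05. The biological coefficient of variation was 51.9%. CPM uses TMM library sizes. Groups with no count were set at 3 counts in all as a floor, which covers counting error only. Fitted medians of the Hox genes were the same to 2 decimals with such genes at their bound, which was not computed for the knockout difference in old minus young. The script was tested on simulated data.

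The members, gene lists and tests were chosen with earlier results of these data known. Every Hox gene past the threshold was named, or the 3 of smallest p where a comparison called none, the 3 of highest mean CPM in each cluster, and Pitx1, Tbx4 and Tbx5; the other Hox genes and the marker genes given with values, such as Hoxa13, Hoxc13, Hoxd11 and Isl1, were chosen after their values were seen. Same-numbered replicates of CKO-YOUNG and CON-YOUNG deviated together (correlations of 0.193, 0.237 and 0.305), which the other compared groups did not do in all 3 pairs. Alternatives were DESeq2 1.42.0, limma-voom (limma 3.58.1), RLE size factors, no filter, only the groups compared, library sets by Malat1 as a term or in part, a replicate block and leaving out each library, with edgeR 4.0.16, R 4.3.3, Python 3.11.15 and matplotlib 3.10.9. RefSeq gene spans and promoters (GRCm38.p6) served for overlap and sequence. Values of some genes are not reported here.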

Additional observations from a re-analysis of the deposited data

Results flagged for a closer look

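Among 14 groups of 6 values examined (the 3 Hox genes of smallest p over both knockout ages and the 4 cluster sums, in the 6 knockout libraries and in the 6 CON-YOUNG and OLD libraries), 2 held a library far from the others, with a gap of more than 0.625 of the whole range. For 6 independent values of 1 normal distribution, chance flags about 1 in 20. Each group of values here pools 2 groups of libraries, and the 3 genes were picked by p and are part of the cluster sums. That rate therefore need not hold here. In the 6 CON-YOUNG and OLD libraries, the summed Hoxb cluster was at 117.6 CPM in CON-YOUNG 3, while the other 5 ran from 2.00 to 16.8 CPM. In the 6 knockout libraries, Hoxc5 was lowest in CKO-OLD 1, at 6.113 CPM, while the other 5 ran from 8.42 to 9.32 CPM.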

How the results depend on the processing

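Beside the edgeR counts of the report, Hox genes called are given with the share of all genes called in the same fit. In CKO-OLD against CKO-YOUNG there were 7 by DESeq2 (9.8% of all genes), 2 by limma-voom (1.53%) and 5 with only the groups compared (4.87%). Without CON-YOUNG 3 and CKO-YOUNG 3, an alternative chosen after seeing the data, 7 were called (25.2%). The number was 0 with RLE size factors, with no filter, with library sets as a term, without set 1 (low-Malat1 YOUNG and OLD libraries) and with a replicate block. Those fits called 0 to 1.52% of all genes. Leaving out 1 library gave 0 to 5, with 5 without CKO-YOUNG 3 (15.7%). Within set 3 (high Malat1) some groups are 1 library, so no count is given for it. In CKO over both ages there were 3 by DESeq2 (2.1%). There was 1 by limma-voom (0.966%), with library sets as a term (0.779%) and without CON-YOUNG 3 and CKO-YOUNG 3 (0.501%). Leaving out 1 library gave 0 to 1, with 1 without CON-YOUNG 3 (0.696%). In CKO-YOUNG against CON-YOUNG there was 1 by DESeq2 (1.14%), Hoxd11, which among these libraries had counts in CKO-YOUNG 2 alone. In CKO-OLD against OLD there were 2 by DESeq2 (0.926%). In CON-OLD-iBP against OLD there were 4 by DESeq2 (10%) and 0 to 4 leaving out 1 library, with 4 without OLD 2 (7.87%). In CKO-OLD against CON-OLD-iBP there was 1 with library sets as a term (12.3%). The cause of these moves was not tested. The median log2 fold change of the Hox genes in CKO-OLD against CON-OLD-iBP was 0.11 by limma-voom, 0.13 with a replicate block and -0.44 to 0.43 leaving out 1 library, with CON-OLD-iBP 3 giving the highest. Leaving out 1 library gave medians of 0.05 to 0.57 in CKO-YOUNG against CON-YOUNG, 0.20 to 0.62 in CKO over both ages, 0.04 to 0.64 in CON-OLD-iBP against OLD, -0.15 to 0.68 for the knockout difference in old minus young, 0.06 to 0.47 in OLD against YOUNG and -0.46 to -0.13 in CKO-OLD against CKO-YOUNG. With a replicate block, fitted on the groups compared, edgeR called 0 Hox genes in each of the 8 comparisons. The same fit without the block called 5 in CKO-OLD against CKO-YOUNG (Hoxa3, Hoxa5, Hoxb2, Hoxb3 and Hoxd10; adjusted p of Hoxa3 with the block 0.058) and 0 in the others. Over all genes, CKO over both ages had 50 calls with the block and 89 without. The median of CKO-YOUNG against CON-YOUNG turned to -0.11 within set 3, and that of the knockout difference to -0.10 without CON-YOUNG 3 and CKO-YOUNG 3. Depth limits Hoxb13 and Hoxd1, with 23 and 7 counts over all libraries.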
